A study of Homo sapiens with 17 samples.

Results

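GFP-mCherry- cells, the fraction that showed neither reporter when differentiating cultures of H9 human embryonic stem cells were sorted, were compared at day 40 and day 25. The comparison used 6 of the 17 RNA-seq libraries of the series, the day 40 libraries 12, 15 and 18 and the day 25 libraries 3, 6 and 9. Genes entered when at least 2 of these 6 libraries held 1 FPKM or more (a fragment level scaled to transcript length and library size). This kept 13950 of 20218 genes. The second highest of the 6 values was 1.00 FPKM in the gene just inside this limit and 0.9998 FPKM in the gene just outside. All further counts are over those 13950 genes.

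Every library of the series carries the same labels for its origin: the H9 hESC line as background, a cell line named SHOX2, and sinoatrial-node-like cells made from pluripotent stem cells as the cell type. The groups used here were GFP-mCherry- cells at day 40 and day 25 of directed differentiation (3 libraries each) and, for the question whether a change was shared, GFP-mCherry+ cells at day 40 and day 25 (3 each) and GFP+mCherry+ cells at day 40 (2) and day 25 (3). The labels list CHIR99021, BMP4, Activin A, XAV939, cucurbitacin, retinoic acid, SU5402, Tyrphostin AG 490 and chidamide among the agents of a cardiomyocyte and a sinoatrial protocol and do not say which protocol gave which sorted cells. The reporter genes themselves are not spelled out; the genotype label of the day 25 libraries lacks its last sign, and their titles give GFP-mCherry-. Separate cultures are not mentioned for the libraries of a group. The p-values therefore reflect how these libraries vary, and that variation may be technical.

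Directed cardiac differentiation passes through mesendoderm, from which both heart mesoderm and definitive endoderm arise, and cultures usually hold fibroblast-like, epicardial, endothelial and endoderm-derived cells besides cardiomyocytes. Such non-muscle cells secrete the collagens, elastic fibres and proteoglycans of the extracellular matrix. As embryonic cells mature, the LIN28 proteins, which block the processing of let-7 microRNAs, usually decline together with let-7 targets such as HMGA2.

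Of the defining markers of the labelled sinoatrial cell type, SHOX2 was near 0 in these 6 libraries and others were present. SHOX2 (ENSG00000168779), the sinoatrial transcription factor, stood at 1.32, 0.253 and 0.447 FPKM at day 40 and at 0.323, 0.415 and 0.545 FPKM at day 25, too low to be tested, whereas GFP+mCherry+ cells held 58.5 and 90.2 FPKM at day 40 and 49.0 to 139 FPKM at day 25. TBX3, a repressor of working muscle genes in the node, stood at 20.2, 12.8 and 19.7 FPKM at day 40 and at 18.95 to 27.0 FPKM at day 25, against 27.2 to 44.0 FPKM over the GFP+mCherry+ libraries of both days. HCN4, the pacemaker channel, ranged from 2.34 to 8.03 FPKM at day 40 and from 5.61 to 10.1 FPKM at day 25, against 30.5 to 46.1 FPKM there. ISL1 (3.82 to 15.1 FPKM) and TBX18 (10.7 to 76.6 FPKM), which the node shares with other progenitors, were also present over the 6 libraries. Fibroblast, epithelial and epicardial markers were abundant at both days: DCN stood at 1539, 2241 and 1143 FPKM at day 40 against 1072, 1040 and 1372 FPKM at day 25. EPCAM stood at 216, 177 and 260 FPKM at day 40 against 323, 425 and 381 FPKM at day 25. The epicardial factor WT1 ranged from 21.8 to 41.2 FPKM at day 40 and from 31.0 to 50.6 FPKM at day 25. POU5F1 and NANOG, which define pluripotent cells, did not exceed 0.153 FPKM in any of the 6 libraries. The libraries thus held markers of several cell types, and the cells are called here by their sort gate. In such bulk RNA a fall in the number of cells of a type and a fall in RNA per cell cannot be told apart.

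Sums over the 6 libraries ran from 572059 to 632347 FPKM, and 13373 to 13501 genes reached 1 FPKM in each; read depth was unknown. On the log2(FPKM + 1) scale libraries correlated at 0.973 to 0.982 within day 40, at 0.985 to 0.991 within day 25 and at 0.966 to 0.979 across the days. The first principal component of these 6 libraries held 44.4% of the variance and separated the days, and the second, with 22%, separated library 12 from library 18. Library 12 stood apart at day 40 in muscle RNA. The summed level of the 24 cardiomyocyte genes listed was 4659 FPKM in library 12, against 1033 and 1182 FPKM in the other two day 40 libraries and 1282 to 1613 FPKM at day 25. GFP-mCherry+ libraries held 31940 to 47104 FPKM at day 40. Its part in other results was not tested beyond leaving the library out.

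Of the 13950 genes 583 passed an adjusted p of 0.05 (4.18%), 232 higher at day 40 (1.66%) and 351 lower (2.52%). The test was limma on log2(FPKM + 1) with Benjamini-Hochberg adjustment over all 13950 genes, and differences below are day 40 minus day 25 on that scale with their standard error. This scale understates the differences of low genes. The libraries of the days did not overlap in 1274 genes that were higher at day 40 (9.13%) and 2453 that were lower (17.6%). The median difference over all genes was -0.10, and 38.1% of genes were above 0. The split of higher and lower calls moved with the scaling, to 259 higher and 239 lower after median-of-ratios scaling and to 273 higher and 201 lower after a correction for transcript GC content. Median GC content was 50.6% in the genes called higher, 59.3% in those called lower and 50.1% in all genes tested. Calls also leaned on single libraries: 158 genes were called without library 6, 209 without library 9, 213 without library 15, 315 without library 3 and 332 without library 12. A gene under 1 FPKM in all 3 libraries of a day entered through the other day, so the filter largely set its direction. Among the called genes named below APOB, CCL4, KRT5, MUC13, MYL2, SFRP4, SULT1B1, TFF3 and VSNL1 entered through day 40. So did GUCY2C, ISX, MEP1A, TFF1 and TSPAN8. CLDN5, HBE1, HBG2, NKX2-6, SOX17, SOX18, ST20-MTHFS and ZFP42 entered through day 25. In all, 121 of the 583 calls (59 higher, 62 lower) held whichever of the 6 libraries was left out.

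**Figure D1:**
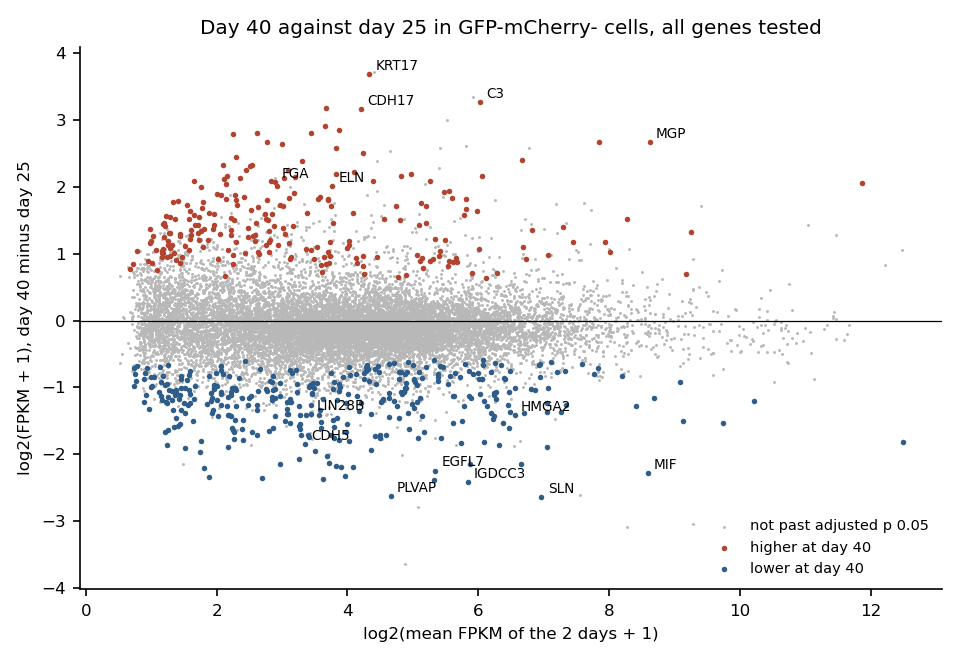
Difference between day 40 and day 25 in GFP-mCherry- cells for the 13950 genes tested, on the log2(FPKM + 1) scale, against the mean level of the 2 days. Red points are the 232 genes higher at day 40, blue points the 351 genes lower, and grey points did not pass the adjusted p of 0.05.

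Some genes of endoderm derivatives, the liver and the gut were higher at day 40. Of 23 tested members of a list of endoderm, liver and yolk sac genes 9 were higher at day 40, 1 was lower and 13 did not pass. Across all genes 1.66% were called higher and 2.52% lower. The median member of the list differed by 1.28 against -0.10 over all genes. The summed level of this list was 1095, 2325 and 1870 FPKM at day 40 against 372, 642 and 630 FPKM at day 25, with library 15 highest and library 12 lowest at day 40. Without single libraries the 9 became 8 (library 12), 5 (library 18), 2 (library 15), 3 (library 3), 5 (library 6) and 4 (library 9).

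The 3 chains of fibrinogen, the liver-made precursor of the blood clot, rose together. FGA (ENSG00000171560), the alpha chain, stood at 7.10, 12.2 and 13.9 FPKM at day 40 against 1.30, 2.19 and 1.89 FPKM at day 25 (2.08 ± 0.39, adjusted p = 0.00783). FGB, the beta chain, stood at 88.8, 212 and 213 FPKM at day 40 against 18.4, 36.6 and 36.3 FPKM at day 25 (2.41 ± 0.56, adjusted p = 0.0249). FGG, the gamma chain, stood at 34.8, 83.4 and 34.0 FPKM at day 40 against 4.91, 11.3 and 14.3 FPKM at day 25 (2.19 ± 0.59, adjusted p = 0.0466). For each chain the lowest day 40 library lay above the highest day 25 library. The call of FGA held whichever library was left out (written below as held without any 1 library); FGB had adjusted p from 0.0624 to 0.1 without library 3, 6, 9, 15 or 18, and FGG from 0.0611 to 0.196 whichever library was left out.

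Because the chains lie side by side on chromosome 4 and moved together, the 250 bases before each transcript start are shown, from RefSeq on GRCh38.p14, with the CCAAT box and the letters GTTAAT (as in HNF1 binding sites) in capitals on either strand. All 3 genes matched the RefSeq table by symbol; FGB has 2 starts there and the first is shown. The FGA window is chr4:154590743-154590992 on the minus strand, the FGB window chr4:154562730-154562979 on the plus strand and the FGG window chr4:154612657-154612906 on the minus strand.
FGA: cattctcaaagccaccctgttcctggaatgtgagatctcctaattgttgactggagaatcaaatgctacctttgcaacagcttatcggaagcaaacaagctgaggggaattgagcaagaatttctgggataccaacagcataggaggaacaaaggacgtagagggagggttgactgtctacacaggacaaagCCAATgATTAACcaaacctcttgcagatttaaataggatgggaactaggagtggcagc
FGB: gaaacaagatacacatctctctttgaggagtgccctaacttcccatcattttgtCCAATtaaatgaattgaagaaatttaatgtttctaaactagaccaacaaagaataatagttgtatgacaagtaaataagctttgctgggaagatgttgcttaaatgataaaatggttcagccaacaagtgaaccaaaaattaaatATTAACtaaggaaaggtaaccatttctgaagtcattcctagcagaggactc
FGG: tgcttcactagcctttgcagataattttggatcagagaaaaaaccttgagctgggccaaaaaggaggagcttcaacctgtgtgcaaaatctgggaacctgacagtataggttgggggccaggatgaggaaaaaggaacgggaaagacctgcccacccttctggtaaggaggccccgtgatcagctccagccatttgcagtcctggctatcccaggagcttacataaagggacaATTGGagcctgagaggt
CCAAT occurred in all 3 windows, and in 32% of the 35116 promoters of the table over the same length. GTTAAT, which was added after the values were seen, occurred in FGA and FGB, where it began 52 and 51 bases before the start, and in 6.23% of all promoters. TATAAA (10.7% of all promoters) and TTTGAA (13.3%) occurred in none of the 3. These matches are descriptions of the letters and not binding sites.

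Other secreted liver products followed. VTN, the plasma and matrix protein vitronectin, stood at 29.1, 74.3 and 57.8 FPKM at day 40 against 15.7, 16.1 and 10.9 FPKM at day 25 (1.77 ± 0.27, adjusted p = 0.00286), the smallest adjusted p of the list, and held without any 1 library. The lipoprotein genes APOB (1.55 ± 0.31, adjusted p = 0.0114) and APOA2 (1.64 ± 0.35, adjusted p = 0.0157) rose, with adjusted p of 0.0601 (APOB) and 0.0633 (APOA2) without library 15 and 0.0668 (APOA2) without library 3. RBP4, the retinol carrier of plasma, averaged 17.5 ± 8.46 FPKM at day 40 and 4.00 ± 1.50 FPKM at day 25 (SD, n = 3 each; 1.82 ± 0.47, adjusted p = 0.0413, and 0.0756 to 0.143 without library 3, 6, 9, 15 or 18). The fetal plasma protein AFP stood at 645, 1380 and 1110 FPKM at day 40 against 202, 364 and 372 FPKM at day 25; the libraries did not overlap, but it did not pass (1.72 ± 0.53, adjusted p = 0.0824). ALB, its adult counterpart, gave no separation of the days (27.7 ± 11.5 FPKM at day 40 and 18.1 ± 7.61 FPKM at day 25; 0.60 ± 0.82, adjusted p = 0.754).

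Transcription factors of these lineages divided. CDX2, which specifies intestine, stood at 2.65, 9.33 and 6.09 FPKM at day 40 against 0.793, 1.68 and 1.26 FPKM at day 25 (1.54 ± 0.32, adjusted p = 0.0152; 0.0546 to 0.0743 without library 3, 9 or 15). HNF4A, a regulator of hepatic and intestinal genes, stood at 2.09, 4.98 and 3.04 FPKM at day 40 against 0.354, 1.05 and 0.864 FPKM at day 25 (1.28 ± 0.32, adjusted p = 0.0338; 0.0621 to 0.151 without library 3, 6, 9, 15 or 18). SOX17, a factor of early definitive endoderm that endothelial cells also use, moved the other way, at 0.705, 0.205 and 0.315 FPKM at day 40 against 1.83, 3.83 and 2.24 FPKM at day 25 (-1.34 ± 0.23, adjusted p = 0.00497, held without any 1 library). FOXA1, a pioneer factor of endoderm, was above its day 25 range in each day 40 library without passing (1.17 ± 0.34, adjusted p = 0.0682).

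Intestinal surface proteins gave some of the largest increases. CDH17, the liver-intestine cadherin, stood at 19.5, 36.3 and 41.3 FPKM at day 40 against 1.44, 2.83 and 3.79 FPKM at day 25 (3.17 ± 0.45, adjusted p = 0.00206). MUC13, a transmembrane mucin of the gut, stood at 6.12, 9.69 and 6.23 FPKM at day 40 against 0.0956, 0.0979 and 0.354 FPKM at day 25 (2.80 ± 0.42, adjusted p = 0.00236). ANXA13, an annexin of intestinal epithelium (2.64 ± 0.36, adjusted p = 0.00148), and SULT1B1, a sulfotransferase of liver and gut (2.17 ± 0.23, adjusted p = 0.000235), rose as well, and all 4 held without any 1 library. In a list of lung and gut epithelium 3 of 9 tested members rose and none fell (median 1.40), where 1.66% of all genes were called higher. AGR2, a disulfide isomerase of mucus-making cells, stood at 16.01, 11.3 and 11.8 FPKM at day 40 against 2.04, 1.44 and 2.36 FPKM at day 25 (2.25 ± 0.32, adjusted p = 0.00206) and held without any 1 library; the chloride channel CFTR (1.03 ± 0.23, adjusted p = 0.0203) and the trefoil peptide TFF3 (1.87 ± 0.48, adjusted p = 0.0393) did not, and 1 of the 3 remained without library 3, 9 or 15.

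**Figure D2:**
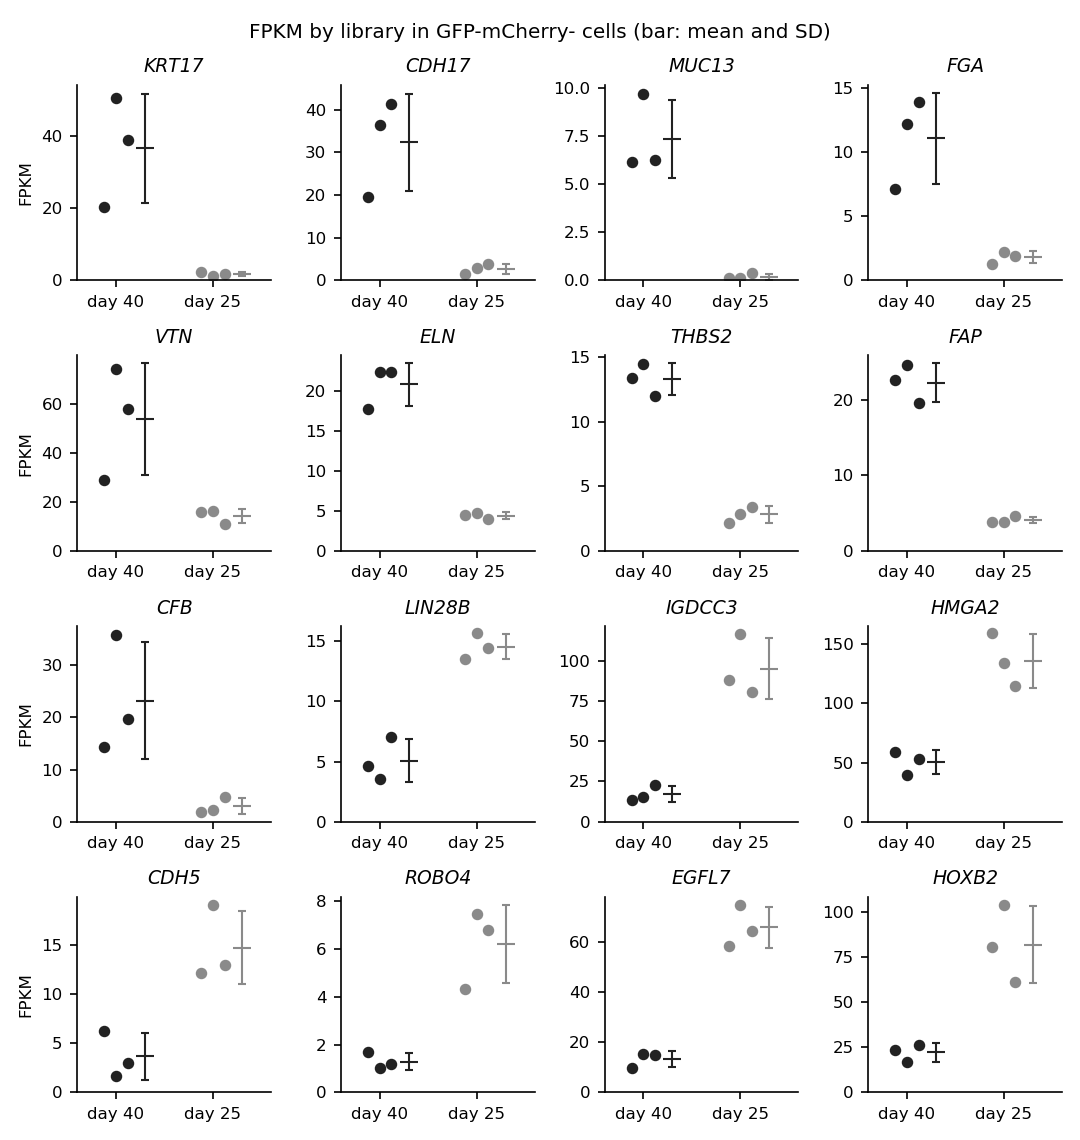
FPKM of 16 genes in each GFP-mCherry- library at day 40 (black) and day 25 (grey), each panel on its own linear axis from 0, with the mean and SD beside the 3 points. In none of the 16 panels do the libraries of the days overlap.

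The general epithelial list did not move with the gut genes: of 20 tested members 2 rose and 2 fell, with a median of -0.46, and 3 of the 20 lay above 0. Across all genes 1.66% were called higher and 2.52% lower. EPCAM, an adhesion molecule of simple epithelia, was lower in every day 40 library without passing (-0.80 ± 0.33, adjusted p = 0.206). The cadherin CDH1 gave 102, 165 and 141 FPKM at day 40 against 83.0, 145 and 134 FPKM at day 25 (0.18 ± 0.29, adjusted p = 0.799). The basal-cell keratins KRT5 (1.64 ± 0.40, adjusted p = 0.0316) and KRT15 (1.89 ± 0.47, adjusted p = 0.0355) rose, whereas the tight junction gene CLDN3 (-1.66 ± 0.36, adjusted p = 0.018) and the protease inhibitor SPINT2 (-0.92 ± 0.23, adjusted p = 0.0374) fell. None of these 4 was called in every fit with a library left out, with adjusted p up to 0.143 (KRT5, without library 15), 0.125 (KRT15, library 9), 0.0941 (CLDN3, library 6) and 0.144 (SPINT2, library 12). CLDN3 was also not called after the GC correction (adjusted p = 0.143). KRT17, a keratin of basal and stressed epithelium that was not in the list, had the largest difference of any gene named here, at 20.4, 50.5 and 38.8 FPKM at day 40 against 2.35, 1.12 and 1.84 FPKM at day 25 (3.69 ± 0.34, adjusted p = 5.52e-05), and held without any 1 library.

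Several genes for elastic fibre and matricellular proteins were higher at day 40. Of 27 tested members 11 were higher at day 40, none was lower and 16 did not pass, where 1.66% of all genes were called higher. The median was 0.84, and 24 of 27 lay above 0. Whichever library was left out, 6 or 7 of the 27 were still called. The summed level was 13371, 17691 and 11909 FPKM at day 40 against 8130, 7039 and 7374 FPKM at day 25.

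ELN (ENSG00000049540), which encodes elastin, the rubber-like core of the fibre, stood at 17.7, 22.4 and 22.3 FPKM at day 40 against 4.51, 4.78 and 3.94 FPKM at day 25 (2.01 ± 0.32, adjusted p = 0.00356). THBS2, a thrombospondin that limits vessel growth, stood at 13.4, 14.5 and 12.0 FPKM at day 40 against 2.14, 2.89 and 3.44 FPKM at day 25 (1.91 ± 0.30, adjusted p = 0.00276). MFAP4, a microfibril protein (1.53 ± 0.27, adjusted p = 0.00615), the large proteoglycan VCAN (1.35 ± 0.25, adjusted p = 0.00772) and LTBP2, a latent TGF-beta binding protein (1.52 ± 0.29, adjusted p = 0.00969), rose too, and these 5 held without any 1 library. The fibrillins FBN1 (1.59 ± 0.37, adjusted p = 0.0238) and FBN2 (0.94 ± 0.22, adjusted p = 0.0238), which build the microfibrils around elastin, FBLN5 (1.71 ± 0.43, adjusted p = 0.0378), MFAP5, SPARCL1 and THBS1 completed the 11, each lost without at least 1 library, with adjusted p up to 0.108 (FBN1), 0.0907 (FBN2) and 0.145 (FBLN5). FBLN5 and MFAP5 were also lost after the GC correction (adjusted p = 0.0532 for FBLN5 and 0.0577 for MFAP5). FN1, fibronectin, stood at 4152, 4565 and 3329 FPKM at day 40 against 2042, 1690 and 1259 FPKM at day 25 and was not called (1.29 ± 2.43, adjusted p = 0.836). FN1 was listed at 0 in 1 GFP-mCherry+ and 1 GFP+mCherry+ library at day 25, whose partners held 522 to 2045 FPKM. With such values set to missing its adjusted p was 0.158, and fitted on the 6 libraries alone it was 0.0294.

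Small leucine-rich proteoglycans, which bind and space collagen fibrils, split by gene. Of 8 tested members 4 rose and none fell (median 1.07), where 1.66% of all genes were called higher. OGN, osteoglycin, stood at 15.1, 35.4 and 15.6 FPKM at day 40 against 0.912, 0.942 and 2.48 FPKM at day 25 (3.18 ± 0.62, adjusted p = 0.0104; 0.0517 and 0.055 without libraries 6 and 15). ASPN, asporin, stood at 7.15, 12.8 and 12.4 FPKM at day 40 against 0.672, 0.709 and 1.04 FPKM at day 25 (2.67 ± 0.39, adjusted p = 0.00208, held without any 1 library). The most abundant members gave no called difference: DCN, decorin, 0.45 ± 0.43 (adjusted p = 0.625) and LUM, lumican, with 745, 1193 and 605 FPKM at day 40 against 852, 748 and 651 FPKM at day 25 (0.12 ± 0.43, adjusted p = 0.915). Without single libraries the count of 4 fell to 2 (library 12, 3 or 9) or 1 (library 6 or 15).

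Fibrillar and associated collagens lay above 0 in 17 of 18 tested members, with a median of 0.91, but only COL8A1 (1.13 ± 0.25, adjusted p = 0.0185) and COL15A1 (2.17 ± 0.55, adjusted p = 0.038) rose. Neither was called without library 6, 12 or 15, nor COL15A1 without library 3 or 9 (adjusted p 0.0647 to 0.172), and without library 18 the count was 5. COL15A1 was lost after the GC correction (adjusted p = 0.0529), under which 4 collagens were higher, and 5 were higher after quantile normalization. Type I collagen differed between its chains: COL1A1 stood at 1216, 3421 and 1752 FPKM at day 40 against 1270, 1453 and 1259 FPKM at day 25 (0.55 ± 0.30, adjusted p = 0.349), with overlap, whereas COL1A2 stood at 3262, 4265 and 1865 FPKM at day 40 against 1025, 1167 and 1109 FPKM at day 25 without overlap (1.43 ± 0.41, adjusted p = 0.0613). COL2A1, the collagen of cartilage and early embryonic epithelia, fell, at 38.8, 38.7 and 47.9 FPKM at day 40 against 134, 116 and 116 FPKM at day 25 (-1.53 ± 0.30, adjusted p = 0.0108), and held without any 1 library. HAPLN1, which links hyaluronan to proteoglycans in cartilage and the embryonic heart, fell with it (-1.94 ± 0.35, adjusted p = 0.00686, held without any 1 library). Of 15 collagen processing enzymes P4HA2, LOXL4 and LOXL1 rose, and none of these was called without library 6, 9 or 15 (adjusted p 0.0569 to 0.201). Calls of higher made up 1.66% of all genes.

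Other secreted proteins and markers of fibroblasts gave strong single changes. FAP, a surface protease of activated fibroblasts, stood at 22.7, 24.6 and 19.5 FPKM at day 40 against 3.87, 3.79 and 4.56 FPKM at day 25 (2.19 ± 0.36, adjusted p = 0.00429). CILP, a matrix protein of cartilage and heart fibroblasts (2.85 ± 0.40, adjusted p = 0.00179), LAMA2, a laminin chain of muscle basement membrane (1.85 ± 0.29, adjusted p = 0.00343), and the protease inhibitors SERPINE2 (2.68 ± 0.49, adjusted p = 0.00689) and SERPINB2 (2.91 ± 0.53, adjusted p = 0.00709) also rose, and these 5 held without any 1 library. MGP, an inhibitor of calcification, stood at 687, 534 and 772 FPKM at day 40 against 142, 42.5 and 175 FPKM at day 25 (2.67 ± 0.67, adjusted p = 0.0355), but was not called whichever of the 6 libraries was left out (0.0542 to 0.165). Fibroblast markers as a list did not move one way, with 2 of 16 higher (FAP, MGP), 1 lower and a median of 0.17; the member that fell was CD34 (-1.40 ± 0.33, adjusted p = 0.0267; 0.0667 to 0.119 without library 6, 9, 15 or 18), which endothelial cells also express. CA9, a carbonic anhydrase induced by hypoxia, rose (2.81 ± 0.42, adjusted p = 0.00242, held without any 1 library). SLC2A1, the main glucose transporter of many embryonic cells and a member of the same list of 26, fell (-1.21 ± 0.30, adjusted p = 0.0323, and 0.0553 to 0.153 without library 6, 9, 12 or 18). In that list of glycolysis and hypoxia genes 22 of the 26 lay below 0, with a median of -0.25. The days separated in 1 that was higher and 3 that were lower, where all genes gave 9.13% and 17.6%.

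Complement genes rose in 5 of 17 tested members and fell in none (median 0.55), where 1.66% of all genes were called higher. CFB, a serine protease of the alternative pathway convertase, stood at 14.3, 35.8 and 19.6 FPKM at day 40 against 1.88, 2.28 and 4.75 FPKM at day 25 (2.58 ± 0.42, adjusted p = 0.00392). It held without any 1 library. C3, the central component, stood at 104, 175 and 72.2 FPKM at day 40 against 8.42, 7.02 and 19.1 FPKM at day 25 (3.27 ± 0.78, adjusted p = 0.0284; 0.0703 to 0.117 without library 3, 6, 12 or 15). C7 (2.09 ± 0.52, adjusted p = 0.0339) and C1R (1.51 ± 0.40, adjusted p = 0.0444) were lost without library 3, 6, 9, 12 or 15 (0.076 to 0.173), and C1R after the GC correction (0.0704). The count of 5 became 2 without library 12, 15, 3 or 6, 3 without library 9 and 6 without library 18.

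**Figure D3:**
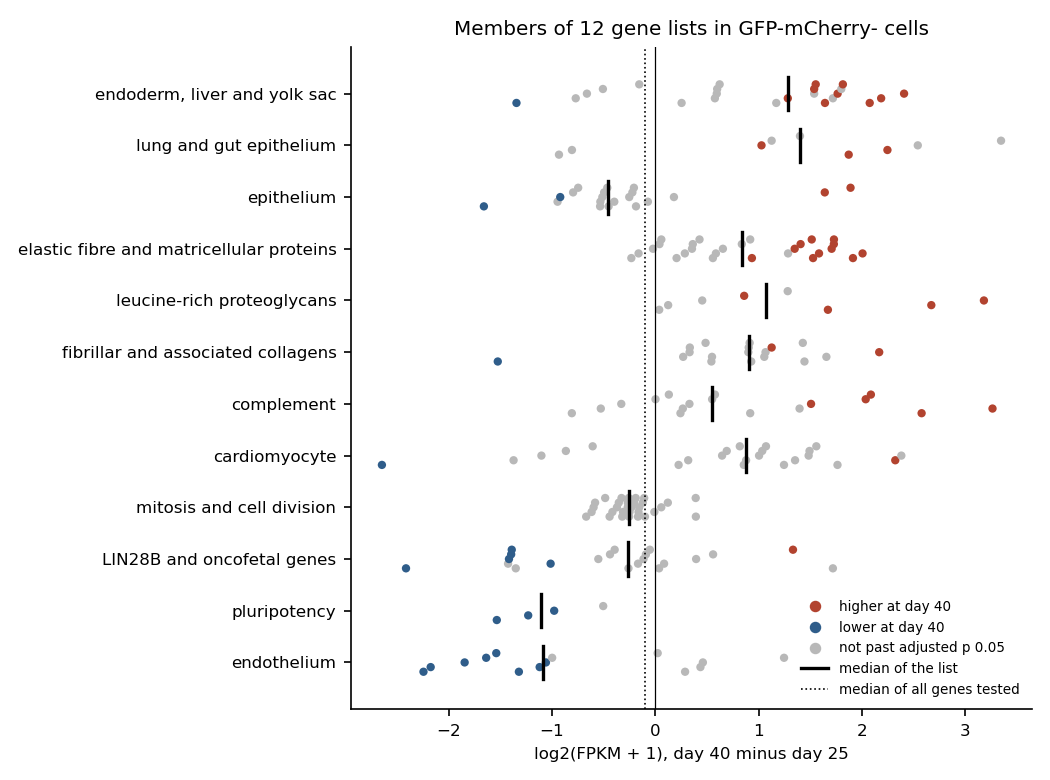
Difference between day 40 and day 25 in GFP-mCherry- cells for each tested member of 12 gene lists, on the log2(FPKM + 1) scale, with red for members higher at day 40, blue for members lower and grey for those that did not pass. Black bars mark the list medians, from 1.40 (lung and gut epithelium) to -1.11 (pluripotency), and the dotted line the median of all genes, -0.10.

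In a list of LIN28B and oncofetal genes 5 of 21 tested members fell, 1 rose and 15 did not pass (median -0.26). Across all genes 2.52% were called lower and 1.66% higher. LIN28B (ENSG00000187772) stood at 4.65, 3.53 and 7.06 FPKM at day 40 against 13.6, 15.7 and 14.5 FPKM at day 25 (-1.40 ± 0.24, adjusted p = 0.00497) and held without any 1 library. IGDCC3, a surface protein that is a known let-7 target, had the largest fall of the list, with 13.2, 15.6 and 23.0 FPKM at day 40 against 87.9, 117 and 80.8 FPKM at day 25 (-2.41 ± 0.37, adjusted p = 0.00266), and held too. The chromatin protein HMGA2, also a let-7 target, stood at 58.7, 39.7 and 52.99 FPKM at day 40 against 160, 134 and 114 FPKM at day 25 (-1.42 ± 0.29, adjusted p = 0.0125; 0.051 to 0.0617 without library 3, 6 or 15). Its relative HMGA1 stood at 51.5, 52.8 and 65.8 FPKM at day 40 against 137, 165 and 148 FPKM at day 25 (-1.39 ± 0.28, adjusted p = 0.0114; 0.0601 without library 6). TRIM71, another let-7 target, fell by 1.01 on the log2 scale (adjusted p = 0.044; 0.0581 to 0.185 without each library in turn).

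The RNA-binding proteins IGF2BP1 and IGF2BP3, also known as let-7 targets, were not called. IGF2BP1, with 26.1, 25.7 and 29.4 FPKM at day 40 against 28.4, 34.5 and 28.8 FPKM at day 25 (-0.17 ± 0.15, adjusted p = 0.591), and IGF2BP3 (-0.26 ± 0.20, adjusted p = 0.538) overlapped between the days. IGF2, the fetal growth factor, gave 737 ± 238 FPKM at day 40 and 746 ± 117 FPKM at day 25 (SD, n = 3 each; adjusted p = 0.939). DLK1, an imprinted Notch-family ligand, rose, at 748, 1342 and 555 FPKM at day 40 against 413, 282 and 297 FPKM at day 25 (1.33 ± 0.32, adjusted p = 0.0311; 0.0617 to 0.14 without library 6, 9, 12 or 15). The 5 that fell became 3 without library 15 or 3 and 2 without library 6.

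Pluripotency genes were at low levels, with 4 of 11 reaching the filter, and 3 of those 4 fell. ZFP42 stood at 0.517, 0.608 and 0.945 FPKM at day 40 against 2.69, 3.05 and 3.10 FPKM at day 25 (-1.23 ± 0.22, adjusted p = 0.00615). L1TD1, an RNA-binding protein of embryonic stem cells, stood at 4.33, 1.45 and 5.37 FPKM at day 40 against 13.3, 11.8 and 9.97 FPKM at day 25 (-1.53 ± 0.30, adjusted p = 0.0109). Both held without any 1 library. DPPA4 passed (-0.98 ± 0.27, adjusted p = 0.0485) but not with any library left out (0.082 to 0.17). ZFP42 entered through day 25, so the count of 3 is not support for a trend. The 20 tested HOX genes had no common direction, with 10 above and 10 below 0, 3 separated higher and 5 separated lower. Across all genes 9.13% separated higher and 17.6% lower. HOXB1 stood at 1.01, 0.556 and 1.24 FPKM at day 40 against 6.55, 5.48 and 6.34 FPKM at day 25 (-1.89 ± 0.33, adjusted p = 0.00574). HOXB2 stood at 23.3, 16.7 and 26.5 FPKM at day 40 against 80.4, 104 and 61.3 FPKM at day 25 (-1.83 ± 0.24, adjusted p = 0.00118). They were the only called members, and both held without any 1 library.

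Of 14 tested endothelial genes 8 were lower at day 40, none was higher and 6 did not pass, with a median of -1.09 (-0.56 after the GC correction). Across all genes 2.52% were called lower. The 8 include SOX18 and CLDN5, which entered through day 25. The summed level of the list overlapped, at 180, 233 and 145 FPKM at day 40 against 175, 265 and 240 FPKM at day 25. KDR, a member that was not called, made up 78.9, 128 and 62.4 FPKM of the day 40 sums. It made up 23.0, 44.9 and 43.4 FPKM of the day 25 sums. CDH5, the cadherin that defines endothelial junctions, stood at 6.27, 1.70 and 3.02 FPKM at day 40 against 12.2, 18.99 and 13.0 FPKM at day 25 (-1.85 ± 0.32, adjusted p = 0.00516). ROBO4, a guidance receptor that stabilises vessels, stood at 1.67, 1.01 and 1.18 FPKM at day 40 against 4.34, 7.45 and 6.80 FPKM at day 25 (-1.64 ± 0.20, adjusted p = 0.000766). The secreted vascular factor EGFL7 stood at 9.71, 15.3 and 14.8 FPKM at day 40 against 58.4, 74.9 and 64.4 FPKM at day 25 (-2.25 ± 0.37, adjusted p = 0.00442). The transcription factor SOX18 (-1.12 ± 0.17, adjusted p = 0.00266) and the tight junction gene CLDN5 (-1.06 ± 0.18, adjusted p = 0.0054) fell at low levels; these 5 held without any 1 library, but SOX18 and CLDN5 were not called after the GC correction (adjusted p = 0.606 for SOX18 and 0.46 for CLDN5), where 5 of the 14 remained lower.

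EMCN, endomucin, a mucin of capillaries and endocardium (-2.18 ± 0.44, adjusted p = 0.0122), the junction protein ESAM (-1.54 ± 0.33, adjusted p = 0.0172) and the receptor TIE1 (-1.32 ± 0.35, adjusted p = 0.044) were the other 3, each lost without library 6 or 15 (0.0607 to 0.184), and TIE1 after the GC correction (0.103). The count of 8 became 5 without library 6 or 15. The growth factor receptors were not called: KDR stood at 78.9, 128 and 62.4 FPKM at day 40 against 23.0, 44.9 and 43.4 FPKM at day 25, above the day 25 range in each library but not past the test (1.25 ± 0.59, adjusted p = 0.275). FLT1 (0.44 ± 0.49), TEK (0.29 ± 0.40) and the factor ERG (0.02 ± 0.26) overlapped. Among the largest falls of all genes were 3 more that endothelium is known to express. PLVAP, which forms the diaphragms of fenestrae, stood at 8.87, 2.13 and 9.29 FPKM at day 40 against 34.2, 53.6 and 37.7 FPKM at day 25 (-2.62 ± 0.51, adjusted p = 0.00996; 0.0545 without library 6 and 0.069 with a pseudocount of 0.1). CLEC1B, a lectin of platelets and liver sinusoids, stood at 1.21, 0.556 and 1.22 FPKM at day 40 against 4.75, 14.5 and 10.7 FPKM at day 25 (-2.36 ± 0.32, adjusted p = 0.00148). CRHBP, a binding protein for corticotropin-releasing hormone, stood at 33.4, 10.2 and 22.9 FPKM at day 40 against 73.3, 112 and 93.4 FPKM at day 25 (-2.14 ± 0.39, adjusted p = 0.00686). CLEC1B and CRHBP held without any 1 library. Macrophage and blood genes gave 2 called members of 12, both entered through day 25, so that the filter largely set their direction, the embryonic globin HBE1 (-1.57 ± 0.26, adjusted p = 0.00429, held) and the fetal globin HBG2 (-0.99 ± 0.26, adjusted p = 0.0444; not called without library 3, 9, 12, 15 or 18, adjusted p 0.06 to 0.206), whose reads its near-identical copy HBG1 can share. The macrophage receptor CSF1R gave 3.10, 5.57 and 4.59 FPKM at day 40 against 3.42, 2.57 and 2.06 FPKM at day 25 (0.55 ± 0.38, adjusted p = 0.481). Over this list 9 of the 12 lay above 0 (median 0.82), but none was called higher. The days separated in 7 that were higher and 1 that was lower, where all genes gave 9.13% and 17.6%.

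The other large falls had no common list. SLN, the atrial calcium pump regulator sarcolipin, stood at 36.3, 53.9 and 17.4 FPKM at day 40 against 183, 266 and 188 FPKM at day 25 (-2.65 ± 0.61, adjusted p = 0.0242; 0.0564 to 0.0997 without library 3, 6, 9, 12 or 18). GFP-mCherry+ cells had 34.3 ± 8.41 FPKM of SLN at day 25 (SD, n = 3), below the range of the GFP-mCherry- cells at that day. NTRK2, the receptor for brain-derived neurotrophic factor (-2.39 ± 0.43, adjusted p = 0.00701), IRX1, an Iroquois transcription factor (-2.19 ± 0.42, adjusted p = 0.00948), IER5L (-2.19 ± 0.32, adjusted p = 0.00206) and SYCE1L (-2.14 ± 0.35, adjusted p = 0.00371) held without any 1 library. FGF23, a hormone of phosphate balance (-2.13 ± 0.43, adjusted p = 0.0116), was lost without library 6 or 15 (0.0658 and 0.0601). The cytokine MIF (-2.28 ± 0.54, adjusted p = 0.0274) was lost without library 3, 6, 9 or 12 (0.0812 to 0.105). MZT2B (-2.15 ± 0.44, adjusted p = 0.0129; 0.0624 without library 9), which has a near-identical copy in MZT2A, and the read-through transcript ST20-MTHFS (-2.35 ± 0.36, adjusted p = 0.00271), which shares exons with its neighbours, are uncertain.

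Of 23 tested cardiomyocyte genes 18 lay above 0, and the days separated in 9 that were higher and 4 that were lower, where all genes gave 9.13% and 17.6%. TNNT2, MYH6, MYH7 and MYL2 had their highest level in library 12, as did CSRP3, which was not in the list. TNNT2, cardiac troponin T, stood at 796, 157 and 177 FPKM at day 40 against 168, 123 and 114 FPKM at day 25 (1.07 ± 0.46, adjusted p = 0.231). MYH6, the atrial myosin heavy chain, stood at 42.0, 6.64 and 4.76 FPKM at day 40 against 6.05, 7.09 and 5.04 FPKM at day 25 (0.82 ± 1.62, adjusted p = 0.844). MYH6 was listed at 0 in 1 GFP-mCherry+ library at day 40, whose partners held 521 and 628 FPKM, and its adjusted p was 0.45 with such values missing. MYH7, the slow myosin heavy chain, stood at 86.9, 12.9 and 13.4 FPKM at day 40 against 3.10, 5.25 and 3.85 FPKM at day 25 without overlap (2.38 ± 0.69, adjusted p = 0.0673). Of 23 tested members MYL2, the ventricular light chain, rose (2.32 ± 0.49, adjusted p = 0.0146), SLN fell and 21 did not pass (median 0.88). MYL2 stood at 16.6, 5.43 and 4.55 FPKM at day 40 against 0.993, 0.921 and 0.306 FPKM at day 25, and without library 12 it was not called (adjusted p = 0.06), nor without library 6 or 9 (0.0517 and 0.0725). CSRP3, a Z-disc protein of striated muscle, stood at 74.3, 11.5 and 12.6 FPKM at day 40 against 3.18, 3.35 and 2.79 FPKM at day 25 (2.51 ± 0.55, adjusted p = 0.0185; 0.0525 to 0.0725 without library 3, 6 or 9) and remained called without library 12. The sinoatrial list of 12 had 1 call, VSNL1, a calcium sensor (1.30 ± 0.35, adjusted p = 0.0465), which was lost whichever library was left out (0.0993 to 0.151). HCN4 overlapped between the days (-0.78 ± 0.33, adjusted p = 0.212).

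Signalling genes changed singly rather than as lists. For the counts that follow, 1.66% of all genes were called higher and 2.52% lower. Of 33 Wnt genes 3 rose and 3 fell (median 0.01): the antagonists SFRP4 (1.73 ± 0.28, adjusted p = 0.00425) and DKK2 (1.82 ± 0.34, adjusted p = 0.00868) rose, and NOTUM, an enzyme that inactivates Wnt proteins, fell (-1.38 ± 0.23, adjusted p = 0.00455), all 3 held without any 1 library but NOTUM not after the GC correction (adjusted p = 0.0847). WNT6 (-1.22 ± 0.28, adjusted p = 0.0222) fell and was lost after the GC correction (adjusted p = 0.998) and without library 6, 9, 12 or 15 (0.0617 to 0.112). Of 30 BMP and TGF-beta genes 2 rose and 4 fell (median -0.28), and none of the 4 that fell was called without library 6, 9 or 15. BMP6 rose (1.59 ± 0.27, adjusted p = 0.00469, held), while ID1, the classical BMP target, stood at 94.5, 73.7 and 65.4 FPKM at day 40 against 147, 201 and 206 FPKM at day 25 (-1.24 ± 0.27, adjusted p = 0.0188; 0.0579 to 0.0867 without library 6, 9, 15 or 18). Its relative ID2 fell likewise (-1.16 ± 0.26, adjusted p = 0.0198; 0.0604 to 0.0972 without the same libraries). CDKN1A, the cell cycle inhibitor p21, rose to 18.5, 17.3 and 12.1 FPKM at day 40, against 8.98, 7.94 and 7.69 FPKM at day 25 (0.87 ± 0.20, adjusted p = 0.0219; 0.0873 to 0.0914 without library 6, 9, 12 or 15). BBC3, a p53 target that promotes apoptosis, fell (-1.51 ± 0.27, adjusted p = 0.00664, held without any 1 library).

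None of 31 mitosis genes was called and none had libraries that separated by day. Of these genes 27 lay below 0 and 4 above, with a median of -0.25 against -0.10 over all genes. MKI67 was among those above 0. MKI67 stood at 13.3, 8.52 and 10.6 FPKM at day 40 against 14.2, 5.79 and 5.80 FPKM at day 25 (0.39 ± 0.31, adjusted p = 0.551). Of 29 DNA replication genes CDT1, a licensing factor, fell (-1.62 ± 0.35, adjusted p = 0.018; 0.072 to 0.0754 without library 3, 6 or 12). The summed level of the mitosis list was 432 to 736 FPKM at day 40, against 1167 FPKM in library 3 and 482 FPKM in each of the other two day 25 libraries. Neither oxidative phosphorylation (42 tested), cytosolic ribosomal proteins (46), cholesterol synthesis (22), the heat shock and unfolded protein response (22), epicardium (17), neurons (14) nor MHC class II (9) held a called gene. Of the 46 ribosomal protein genes 18 were separated and lower at day 40, and of the 22 cholesterol synthesis genes 6 were, with all 22 below 0, where 17.6% of all genes were separated and lower. After the GC correction 1 cholesterol gene was called lower. The summed level of cholesterol synthesis was 957, 864 and 1030 FPKM at day 40 against 1375, 1239 and 1110 FPKM at day 25, without overlap.

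Were these changes shared with the reporter-positive cells? Over the same genes GFP-mCherry+ cells had 628 calls (4.5%), 72 higher (0.516%) and 556 lower (3.99%) at day 40. GFP+mCherry+ cells had 365 (2.62%), 166 higher (1.19%) and 199 lower (1.43%). These comparisons use libraries of their own and share the fit, and the labels do not say whether the populations came from the same cultures. Day 25 libraries are numbered 1 to 9 and day 40 libraries 10 to 18. A batch that follows these numbers cannot be told apart from day, so overlaps between populations may not be independent. Of the 351 genes that fell in GFP-mCherry- cells 129 (36.8%) also fell in GFP-mCherry+ cells, which is 23.2% of the falls there, and 68 (19.4%) fell in GFP+mCherry+ cells, 34.2% of the falls there. Of the 232 that rose 11 (4.74%) and 19 (8.19%) did, 15.3% and 11.4% of the rises there. A call in 1 population and not in another is not a difference between them, and the difference of the 2 changes was tested directly. Against GFP-mCherry+ cells 1 of 13950 genes passed (0.00717%), and 912 had an unadjusted p under 0.05 (6.54%). The count was 18 without library 12, 2 without library 3 and 0 without library 6, 9, 15 or 18. Against GFP+mCherry+ cells 67 genes passed (0.48%), 16 with a difference above 0 (0.115%) and 51 below 0 (0.366%). An unadjusted p under 0.05 was reached by 1033 genes (7.41%). Without single libraries the count was 108 (library 12), 36 (library 3), 33 (library 15), 19 (library 18), 16 (library 9) and 14 (library 6).

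Some gut and plasma protein genes were among the 16 genes above 0 in the differences from GFP+mCherry+ cells. So were KRT17, LAMC3 and NACAD. CDX2, at 6.02 ± 3.34 FPKM at day 40 and 1.25 ± 0.445 FPKM at day 25 in GFP-mCherry- cells (SD, n = 3 each), stood at 0.524 and 0.907 FPKM at day 40 and 3.07 ± 0.902 FPKM (SD, n = 3) at day 25 in GFP+mCherry+ cells, so the changes differed by 2.77 ± 0.49 (adjusted p = 0.0216; 0.0516 to 0.0553 without library 3, 9 or 18). RBP4 and APOB gave the same pattern, with higher means at day 40 in GFP-mCherry- cells and lower ones in GFP+mCherry+ cells. Each was called in only 1 of the 6 fits without a GFP-mCherry- library. The 51 genes below 0 included some that macrophages express, which rose in GFP+mCherry+ cells. STAB1, a scavenger receptor of macrophages and sinusoidal endothelium, stood at 6.89, 4.02 and 4.54 FPKM at day 40 against 6.27, 12.4 and 6.42 FPKM at day 25 in GFP-mCherry- cells, and at 24.4 and 37.4 FPKM at day 40 against 0.954 to 2.71 FPKM at day 25 in GFP+mCherry+ cells (difference of the changes -4.24 ± 0.57, adjusted p = 0.00515, held without any 1 GFP-mCherry- library; 0.0874 in 1 of the 11 other settings). The summed level of the macrophage and blood list was 60.4 to 71.9 FPKM at day 40 and 41.4 to 47.5 FPKM at day 25 in GFP-mCherry- cells, and 289 and 710 FPKM at day 40 and 31.9 to 50.3 FPKM at day 25 in GFP+mCherry+ cells.

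**Figure D4:**
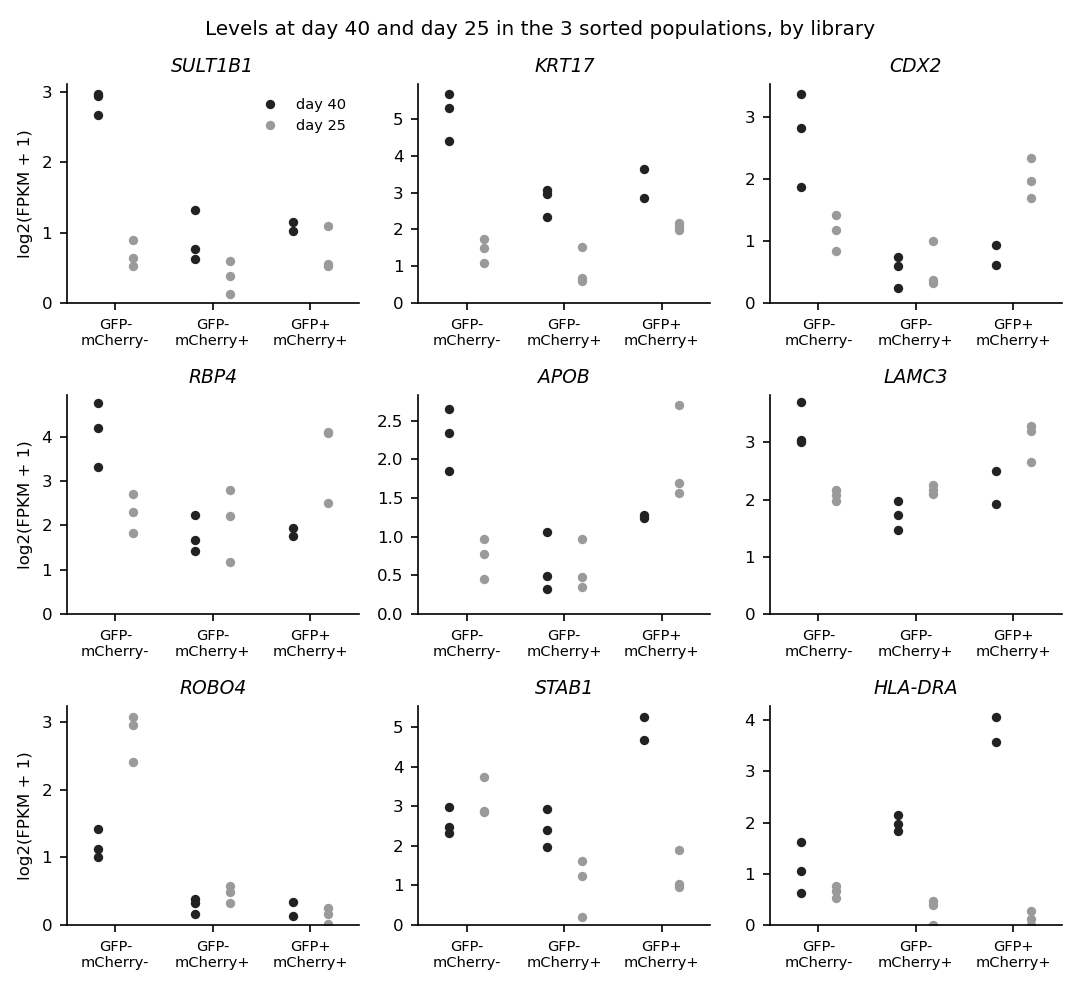
Levels of 9 genes, as log2(FPKM + 1), in each library at day 40 (black) and day 25 (grey) of GFP-mCherry-, GFP-mCherry+ and GFP+mCherry+ cells. The change of each of the 9 genes differed between GFP-mCherry- and GFP+mCherry+ cells, with ROBO4 falling in GFP-mCherry- cells and STAB1 and HLA-DRA rising in GFP+mCherry+ cells.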

How the data were processed

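Expression was measured by RNA-seq of total RNA from sorted cells, with libraries made with a TruSeq kit, per the labels' protocols. The authors' deposited values are taken as FPKM, since the file header names no unit and Cufflinks 2.1.1 is among the tools named, with bcl2fastq 2.19, cutadapt, STAR 2.5.2b and the build hg19, per the submitters' processing notes; their settings are not given in the sources used here. Fragment counts are not used here, so no counting intervals were computed. Library numbers in the column headers matched 1 title each, which gives population and day, and no column belonged to another sample. The table has 20368 rows; for a repeated gene name the row with the highest mean was kept, which left 20218 genes.

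Genes with 1 FPKM or more in at least 2 of the 6 GFP-mCherry- libraries were fitted on log2(FPKM + 1) with limma 3.58.1 in R 4.3.3: 6 group means over all 17 libraries, moderated with a trend, 11 residual degrees of freedom. Adjusted p-values are Benjamini-Hochberg over 13950 genes, two-sided, called under 0.05. The same fit gave the difference between the change here and that in each other population. Simulated data with the same groups were tested first: among 13950 genes the fit found 55% of the simulated shifts of 1 (log2) and 93% of those of 2, with 10 false calls. The shifts were placed only in genes with a mean log2(FPKM + 1) above 2, with independent normal residuals. Recovery in lower genes was not tested. Lists have counts and medians and no test of their own. Python 3.11.15, pandas 2.3.3 and matplotlib 3.10.9 made the summaries and plots.

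Members and lists were chosen with earlier results of these data known. Named genes are a fixed set (SHOX2, MYH6, TNNT2, LIN28B, HMGA2, IGF2BP1, IGF2BP3, AFP, COL1A1, LUM, MKI67), the 15 genes up and 15 down with the largest called difference, no overlap and, in whichever day was higher, an average of 5 FPKM or more, for each list described at most 5 members, taken by adjusted p, and those that moved against it, and the 5 genes with the smallest p in each direction of each difference between populations. Some genes that these rules name are not reported here. Further members of a list and defining markers were named after their values were seen. Alternatives were another pseudocount (0.1), other filters, median-of-ratios and quantile scaling, the 6 libraries alone, quality weights, library numbers as random sets, values listed at 0 set to missing, a correction for the GC content of the annotated transcripts (98.62% of genes had a value), and libraries left out.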

Additional observations from a re-analysis of the deposited data

Results flagged for a closer look

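The change from day 25 to day 40 was tested for a difference between sorted populations, and the genes given here passed an adjusted p of 0.05 in limma. Against GFP+mCherry+ cells the change in GFP-mCherry- cells was larger for RBP4 by 3.53 (adjusted p = 0.0359), CDX2 by 2.77 (adjusted p = 0.0216), KRT17 by 2.52 (adjusted p = 0.0359), APOB by 2.28 (adjusted p = 0.0374), LAMC3, a laminin chain, by 2.01 (adjusted p = 0.0229), NACAD by 2.00 (adjusted p = 0.0269) and SULT1B1 by 1.81 (adjusted p = 0.0269). KRT17, APOB, RBP4 and SULT1B1 were called in 1 of 6 fits without a library, NACAD in 2, CDX2 in 3 and LAMC3 in 4, with adjusted p up to 0.112 in those fits. The change was lower for ROBO4, by -1.73 (adjusted p = 0.0204, called in 3 of 6). Among the other settings LAMC3 was called in 7 of 11, KRT17 and RBP4 in 8 of 11, and APOB and NACAD in 8 of 10. CDX2, ROBO4 and SULT1B1 were called in 9 of 11, with adjusted p up to 0.222 (ROBO4) and 0.304 (SULT1B1).

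Genes of macrophages and of antigen presentation gave differences below 0, HLA-DRA -3.24 (adjusted p = 0.00169), LCP2 -3.82 (adjusted p = 0.00198), CCL4 -3.51 (adjusted p = 0.00515), STAB1 -4.24 (adjusted p = 0.00515) and NPL -3.19 (adjusted p = 0.00671), and all 5 were called in each of the 6 fits. Among the other settings CCL4 was lost in 1 of 9 (adjusted p = 0.238) and STAB1 in 1 of 11 (adjusted p = 0.0874). Among these 5 CCL4, a chemokine, also rose in GFP-mCherry- cells (1.16 ± 0.31, adjusted p = 0.0451), with 1.73 ± 0.525 FPKM at day 40 and 0.208 ± 0.0867 FPKM at day 25 (SD, n = 3 each), and was lost without library 3, 6, 9, 12 or 15 (0.0964 to 0.156). CCL4 was under 1 FPKM in all day 25 GFP-mCherry- libraries, so it entered through day 40 and the filter largely set its direction there. GFP+mCherry+ cells had 2 libraries at day 40, which limits these tests.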

How the results depend on the processing

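Read depth was not known, libraries numbered 3 a group (2 for GFP+mCherry+ at day 40), and low levels are compressed by the added 1. No paired analysis was possible because no library number is shared between the days. Of the called named genes none changed direction under any of the 18 alternatives. For day 40 against day 25 the 583 calls became 362 with a pseudocount of 0.1, 374 with a filter at 5 FPKM, 1607 with sample quality weights and 158 to 474 with a library left out; 121 were called in all 6 of those fits, and the cause was not tested, beyond fewer genes or libraries. The other settings gave 474 (GC correction) to 781 calls (without libraries 13 and 14), with 52% (median-of-ratios scaling) and 57.6% (GC correction) higher against 39.8%. Against GFP-mCherry+ cells the 1 call became 0 with a pseudocount of 0.1, median-of-ratios scaling, a 5 FPKM filter, no filter or without libraries 13 and 14, 2 after the GC correction, 36 with quality weights and 0 to 18 with a library left out. Against GFP+mCherry+ cells the 67 became 6 with a pseudocount of 0.1 and with a filter at 5 FPKM, 210 with no filter, 184 with the filter over all 17 libraries, 126 after quantile normalization, 181 with quality weights, 120 with consecutive library numbers as a random set and 14 to 108 with a library left out. These counts against the other populations could not be had from the 6 libraries alone. Among named genes that were not called, the sign turned for UPK3B (0.025) after the GC correction, ERG (-0.15) with quality weights, and IGF2 after median-of-ratios scaling (0.049) and the GC correction (0.13). With a library left out it turned within the ranges of MYH6 (-0.08 to 1.37), LUM (-0.15 to 0.34), LCP2 (-0.19 to 0.001), CDH1 (-0.066 to 0.37), WT1 (-0.48 to 0.002), ERG (-0.22 to 0.18), APOC3 (-0.83 to 0.018), IGF2 (-0.30 to 0.10) and TOP2A (-0.66 to 0.16). Among genes named here, calls that ended with the pseudocount of 0.1 were those of APLNR, C1R, CD34, CDX2, CLDN3, CLDN5, COL15A1, DPPA4, ESAM, FBLN5, FGG, FLT4, HBG2, HNF4A, KRT5, LOXL1, MFAP5, OIT3, PLVAP, RBP4, SOX17, SPARCL1, TFF3, TIE1, TRIM71 and WNT6. With no filter those of C1R, C3, C7, COL15A1, DLK1, DPPA4, FBLN5, FGB, FGG, GATA5, KRT5, KRT15, LOXL1, MFAP5, MGP, MIF, RBP4, SLC2A1, SLN, SPARCL1, SPINT2, TBX2, TFF3, TIE1, TRIM71 and VSNL1 ended. Fitted on the 6 libraries alone, C7, CD34, CDKN1A, CDX2, CLDN3, COL8A1, CSRP3, DLK1, ESAM, FBN2, FGF23, HBG2, LOXL1, MZT2B, OIT3, P4HA2, SLC2A1, SPINT2, TFF3, TIE1 and WNT6 were not called.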

Other observations

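Some called genes outside the lists had known roles in the same tissues; they were picked after their values were seen, so their number supports nothing. Brush-border and gut genes were higher at day 40. VIL1, villin, which bundles actin in microvilli, stood at 3.08, 11.2 and 8.30 FPKM at day 40 against 0.961, 1.46 and 1.05 FPKM at day 25 (1.85 ± 0.35, adjusted p = 0.00857), and TSPAN8, a tetraspanin of gut epithelium, at 5.91, 10.1 and 5.89 FPKM at day 40 against 0.630, 0.315 and 0.542 FPKM at day 25 (2.44 ± 0.35, adjusted p = 0.00206). The intestinal transcription factor ISX (1.27 ± 0.23, adjusted p = 0.00772), the guanylin receptor GUCY2C (1.26 ± 0.22, adjusted p = 0.00497), the protease MEP1A (1.52 ± 0.28, adjusted p = 0.00729), the lipid transfer protein MTTP (1.43 ± 0.21, adjusted p = 0.00236) and the stomach peptide TFF1 (1.80 ± 0.30, adjusted p = 0.00469; listed at 0 in libraries 3 and 6) rose, and these 7 held without any 1 library. ISX, GUCY2C, MEP1A, TFF1 and TSPAN8 were under 1 FPKM in all day 25 libraries, so they entered through day 40. In each of the 7 library 15 was the highest of the day 40 libraries. Altogether 9 intestinal genes were picked this way and called higher, and only these 7 held without any 1 library.

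Some transcription factors of early heart and limb fields were lower at day 40. Among 12 factors picked and called lower, 2 held without any 1 library and 5 were called after the GC correction. HAND1 stood at 25.8, 29.2 and 33.9 FPKM at day 40 against 64.7, 83.5 and 51.7 FPKM at day 25 (-1.12 ± 0.18, adjusted p = 0.00407), and NKX2-6, of the embryonic pharynx and heart, at 0.137, 0.163 and 0.322 FPKM at day 40 against 3.15, 4.27 and 3.18 FPKM at day 25 (-1.90 ± 0.24, adjusted p = 0.000832), and both held without any 1 library. NKX2-6 entered through day 25. MSX2 (-1.23 ± 0.23, adjusted p = 0.00882) was lost without library 6. GATA5 (-1.02 ± 0.25, adjusted p = 0.0324) and TBX2 (-0.91 ± 0.23, adjusted p = 0.0373) were called in none of the 6 fits without a library, nor after the GC correction. Among endothelial genes outside the list the lymphatic and venous receptor FLT4 was lower, at 2.48, 1.20 and 1.75 FPKM at day 40 against 5.77, 12.4 and 7.25 FPKM at day 25 (-1.72 ± 0.30, adjusted p = 0.00574, held without any 1 library), as was the apelin receptor APLNR (-1.72 ± 0.34, adjusted p = 0.0111; not called without library 6 or 15). OIT3, a protein of liver sinusoids, stood at 5.77, 1.29 and 1.42 FPKM at day 40 against 7.14, 20.9 and 14.7 FPKM at day 25 (-2.07 ± 0.38, adjusted p = 0.00772; not called without library 6).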
